A study of Mus musculus with 12 samples.

Results

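Mitochondrial ribosomal protein genes were examined in 2 mouse melanoma lines, B16 and YUMM1.1. They were taken as every gene whose symbol is Mrpl or Mrps followed by a number and at most 1 letter from a to c. The rule found 78 genes (49 named Mrpl and 29 named Mrps) among 55416 gene IDs, and 77 of them were among the 13010 genes with at least 1 CPM (the gene's count as a share of the library total, on the usual CPM scale) in 3 or more of the 12 libraries. Gene counts came from bulk RNA-seq of total RNA, with 3 libraries in each of 4 groups. The groups were B16 cells kept for 48 h with interferon-gamma (IFNG, the recombinant mouse protein at 10 ng/ml), untreated B16 cells, YUMM1.1 cells given the same dose for the same time, and untreated YUMM1.1 cells, all kept in the same serum-supplemented medium. B16 cells make melanin, and YUMM1.1 was established from a tumour of Braf-mutant mice. Each is a single line grown in culture, so a difference between them is one between 2 lines and not between classes of melanoma.

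Mitochondria make the core subunits of the respiratory chain on ribosomes of their own. The 2 ribosomal RNAs are encoded by mitochondrial DNA, while the proteins of the small subunit, which decodes the message, and of the large subunit, which joins amino acids, are encoded in the nucleus, made in the cytosol and imported. Many of these proteins descend from bacterial ribosomal proteins and others occur only in mitochondria. By their known place, 51 of the genes encode large subunit proteins (Mrps30 and Mrps18a among them, despite the names) and 26 encode small subunit proteins. The protein of Mrps36 is now known as a component of the α-ketoglutarate dehydrogenase complex and was assigned to neither. Mrpl53, a large subunit protein gene, had 0 to 2 reads per library and was not tested. It shares exon sequence on the same strand with Gm42688, which averaged 1.41 CPM.

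The promoters of these genes are often read from a shared start region, and 33 of the 77 tested genes (42.9%) had the start of another protein-coding gene on the opposite strand within 1000 bp, against 16.7% of 11924 expressed protein-coding genes. RefSeq promoter windows (250 bases before to 50 after the start, build GRCm38.p6) were found for 69 of the 78 genes, 75 windows in all. A motif of the ETS family (CCGGAAG, either strand) stood in 34.7% of these windows and in 17.4% of the windows of all genes passing the CPM minimum. For the palindromic motif of NRF1, an activator of nuclear genes for mitochondria, the shares were 17.3% and 9.84%, and for that of YY1 (AAGATGGC) they were 16% and 4.36%. At least 1 of these 3 motifs was present in 57.3% against 28.1%. Motifs through which interferons are known to act were searched as well. The core of the interferon-stimulated response element (ISRE) was in 4% of windows against 3.06%, and TTCNNNGAA, the STAT-binding GAS element, in 8% against 6.73%. A match describes these letters only, and the motifs can overlap each other.

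Of the genes that the results turn on, 5 promoters are shown 5′ to 3′ on the strand of the gene, because they carry these motifs and belong to genes that rose or fell with IFNG in B16. Matches are in capitals. Mrpl45 (chr11:97315466-97315765, plus strand) has 3 NRF1 matches and Mrpl44 (chr1:79775768-79776067, plus strand) has 1. Mrpl32 (chr13:14612988-14613287, minus strand), whose start lies 75 bp from that of the proteasome gene Psma2 on the opposite strand, has an NRF1 match that reads on both strands and a YY1 match. Mrps18c (chr5:100798509-100798808, plus strand) has an ETS match and, further downstream, an ISRE match. Mrpl34 (chr8:71464676-71464975, plus strand) has an ETS match followed by a TTCNNNGAA match.
Mrpl45: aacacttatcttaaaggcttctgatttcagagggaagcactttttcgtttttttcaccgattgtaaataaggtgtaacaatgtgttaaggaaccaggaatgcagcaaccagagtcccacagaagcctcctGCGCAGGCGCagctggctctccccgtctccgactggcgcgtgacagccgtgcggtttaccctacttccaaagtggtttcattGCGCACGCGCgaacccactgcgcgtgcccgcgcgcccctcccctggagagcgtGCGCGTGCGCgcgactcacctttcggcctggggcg
Mrpl44: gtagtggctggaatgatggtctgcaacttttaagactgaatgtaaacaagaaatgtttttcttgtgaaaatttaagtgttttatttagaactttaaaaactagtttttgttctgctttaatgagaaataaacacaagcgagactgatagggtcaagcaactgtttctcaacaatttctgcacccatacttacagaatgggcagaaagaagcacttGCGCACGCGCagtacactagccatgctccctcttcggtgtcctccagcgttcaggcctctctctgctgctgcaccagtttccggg
Mrpl32: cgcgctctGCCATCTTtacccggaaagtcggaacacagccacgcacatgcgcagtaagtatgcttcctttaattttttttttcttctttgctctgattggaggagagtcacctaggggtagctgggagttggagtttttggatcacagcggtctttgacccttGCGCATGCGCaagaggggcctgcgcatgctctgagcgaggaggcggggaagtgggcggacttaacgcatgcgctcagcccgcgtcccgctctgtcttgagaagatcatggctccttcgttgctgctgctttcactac
Mrps18c: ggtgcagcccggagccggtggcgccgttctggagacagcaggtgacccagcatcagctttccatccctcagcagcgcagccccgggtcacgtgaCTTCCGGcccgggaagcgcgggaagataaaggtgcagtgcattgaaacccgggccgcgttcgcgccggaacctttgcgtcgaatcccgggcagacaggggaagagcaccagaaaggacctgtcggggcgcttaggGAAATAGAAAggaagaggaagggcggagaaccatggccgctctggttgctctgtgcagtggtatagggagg
Mrpl34: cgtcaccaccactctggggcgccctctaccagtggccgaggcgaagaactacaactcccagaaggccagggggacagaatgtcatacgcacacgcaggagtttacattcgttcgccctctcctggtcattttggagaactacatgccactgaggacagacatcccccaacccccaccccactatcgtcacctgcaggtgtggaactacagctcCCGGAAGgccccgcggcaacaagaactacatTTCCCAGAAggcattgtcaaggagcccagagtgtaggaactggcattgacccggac
Among the genes called higher with IFNG in B16, 16 had a window and 3, 4, 3, 1 and 2 of them held an NRF1, ETS, YY1, ISRE and TTCNNNGAA match. Among those called lower, 7 had a window and 2, 2, 0, 1 and 1 held one. Among those not called, 45 had a window and 8, 19, 9, 1 and 3 held one. No comparison was made of these small counts.

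The libraries held 5031085 to 6639618 counts in IFNG-treated B16, 2573805 to 7888257 in untreated B16, 21574488 to 24747859 in IFNG-treated YUMM1.1 and 19145253 to 22363397 in untreated YUMM1.1, so that levels in B16 carry more counting error. All 8 genes chosen to check the IFNG response were called higher in both lines. Gbp2, a guanylate-binding protein, had 3566, 3563 and 4334 CPM in treated B16 and 10.4, 13.2 and 14.8 CPM in untreated B16. Of 7 pigment cell lineage genes 6 were called lower in YUMM1.1 both untreated and with IFNG, where 34.1% and 33.7% of all genes were. Among them, Mlana had 0 to 0.185 CPM in YUMM1.1 and 1564 to 2191 CPM in B16. The exception was Sox10, not called between untreated lines and called higher in YUMM1.1 with IFNG. Together the 7 summed to 688 to 775 CPM in YUMM1.1 and 28120 to 35320 CPM in B16. Markers of leukocytes summed to 0.8 to 3.6 CPM, those of keratinocytes and endothelium to 0 to 4.6 CPM, and those of fibroblasts to 5.8 to 59.8 CPM, the highest in B16 IFNG 2. The third treated B16 library stood apart. A chi-square comparison of its counts over genes gave 17.5 and 17.2 per degree of freedom against IFNG 1 and IFNG 2, which gave 1.26 between themselves. Among untreated B16 libraries the values were 1.55 to 3.29, and among YUMM1.1 libraries of 1 group 15.4 to 47.2. This statistic grows with depth where libraries differ by more than counting error. The YUMM1.1 libraries were deeper, so the lines cannot be compared by it.

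Together the 78 genes made up 4090, 4122 and 3906 CPM in the treated B16 libraries, against 4510, 4387 and 4129 CPM in untreated B16. In YUMM1.1 they made up 3294, 2979 and 3267 CPM in the treated libraries, against 2932, 3641 and 3548 CPM in the untreated ones. On the CPM scale the treated and untreated groups did not overlap in B16 and overlapped in YUMM1.1, and every YUMM1.1 library lay below every B16 library. Neither separation holds after division by TMM (trimmed mean of M-values) factors. In the B16 fit these were 1.064 to 1.074 in untreated and 0.9271 to 0.9442 in treated libraries, and the groups then overlap. In the fit of 12 libraries they were 1.145 for B16 Control 3 and 0.968 for YUMM1.1 Control 2, and that YUMM1.1 library then lies above that B16 library. The sums are shares of the library total. They depend on what else is in the library, and in bulk RNA fewer cells and less RNA per cell cannot be told apart. The small subunit sum was 0.403 to 0.412 times the large subunit sum in treated B16, 0.398 to 0.404 times in untreated B16, 0.407 to 0.416 times in treated YUMM1.1 and 0.426 to 0.434 times in untreated YUMM1.1.

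Per kilobase of the principal transcript (RPKM, here the CPM divided by the length in kilobases, mean of 12 libraries), the 77 tested genes spread 31.1-fold, between 4.43 and 138 with a median of 31.1. The most abundant by this measure was Mrpl12, whose protein forms the mobile stalk of the large subunit and also binds the mitochondrial RNA polymerase, with a mean of 148 RPKM in treated B16 and 206 RPKM in untreated B16, and of 92.9 RPKM in treated YUMM1.1 and 105 RPKM in untreated YUMM1.1. Mrpl13 (113 RPKM), Mrpl52 (112 RPKM) and Mrpl20 (101 RPKM), all of the large subunit, came next. At the low end were Mrpl1 (4.43 RPKM), of the mobile L1 stalk beside the exit site for tRNA, and Mrpl47 (6.1 RPKM), which sits near the exit of the peptide tunnel. Proteins of 1 ribosome were thus encoded by mRNAs at unequal levels by this measure. The length used per gene is that of 1 annotated transcript, the longest of the preferred class, and a longer one lowers the RPKM. By mean CPM the lowest tested genes were Mrpl23 (8.19 CPM) and Mrps36 (8.36 CPM), below Mrpl1 (15.7 CPM) and Mrpl47 (20.5 CPM).

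In B16, IFNG moved individual mitochondrial ribosomal protein genes in both directions by less than 2-fold. With edgeR's quasi-likelihood test, 17 genes were called higher and 8 lower at a Benjamini-Hochberg adjusted p below 0.05, 32.5% of the 77. In the same test 40.1% of all 12803 genes were called, 20.2% higher and 19.8% lower, so the share called was not above that of genes at large. The log2 fold changes with IFNG ran from -0.83 to 0.85 with a median of 0.06 (all genes -0.01). The median absolute log2 change was 0.24, against 0.40 over all genes, and 0 of the 77 reached an absolute log2 change of 1, which 19.0% of all genes did. Treated and untreated libraries did not overlap in CPM for 41 of the 77, 53.2% of them, against 55.4% of all genes. At an unadjusted p below 0.05 there were 31, where 48% of all genes passed. The call depends on scaling. Library totals in place of TMM factors (trimmed mean of M-values) moved the median log2 value of all genes by -0.19 and that of the 77 to -0.13, and the split became 11 higher and 18 lower.

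**Figure D1:**
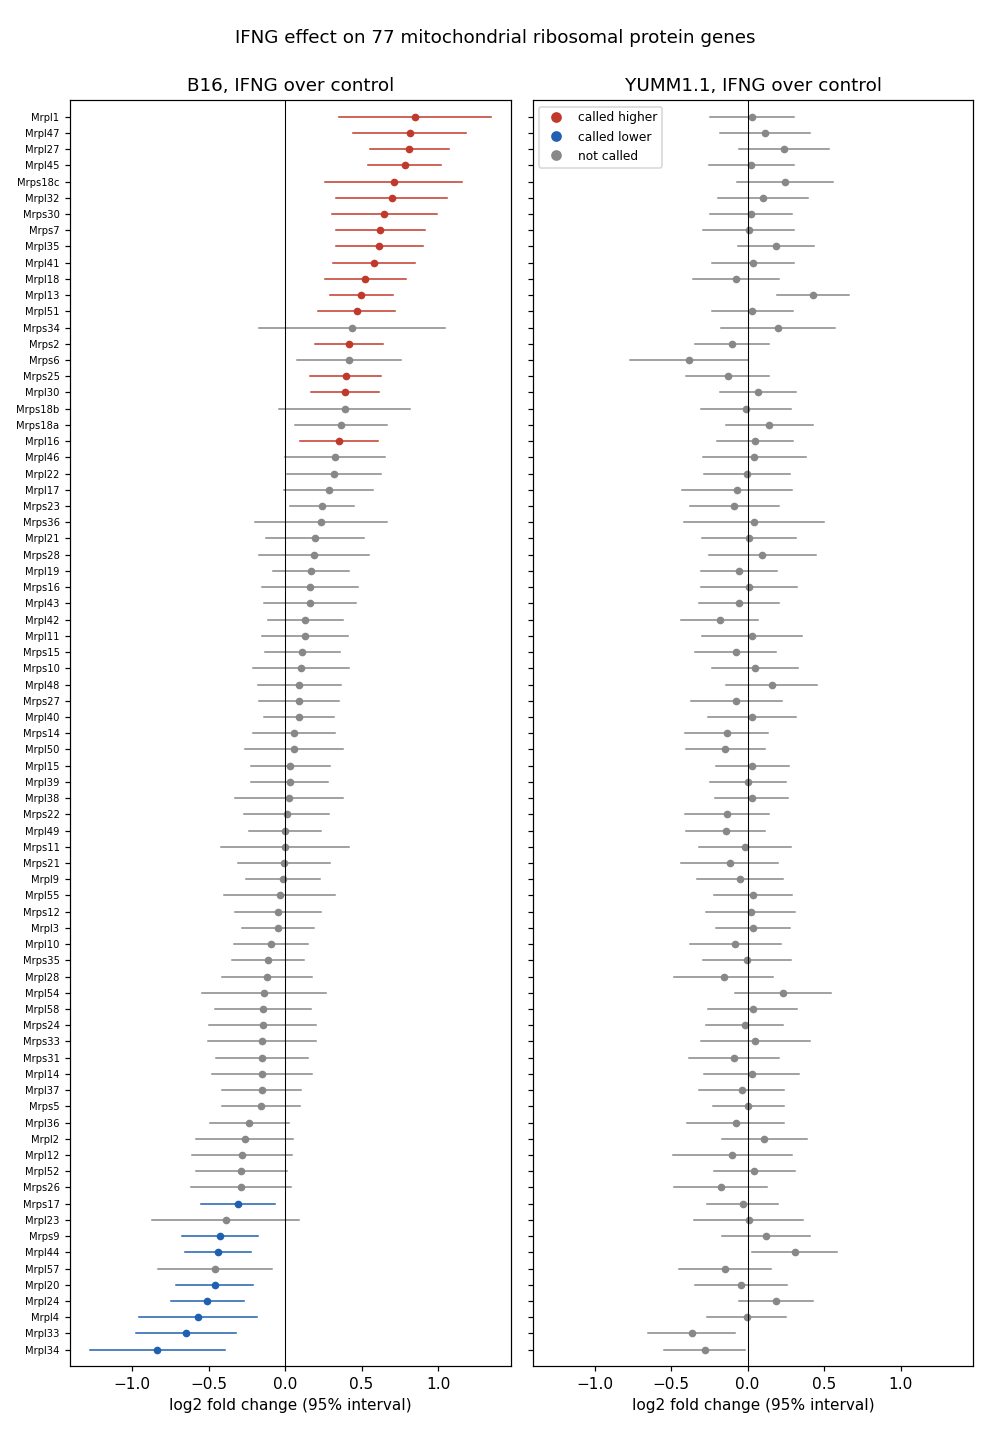
Log2 fold change of IFNG over control with its 95% interval for 77 mitochondrial ribosomal protein genes in B16 (left) and YUMM1.1 (right), both ordered by the B16 value. Called genes (red higher, blue lower) occupy both ends in B16, 17 and 8 in number, while in YUMM1.1 all 77 are grey and lie closer to 0.

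Of 50 tested large subunit genes 13 were called higher, and of 26 tested small subunit genes 4 were. Those called lower were 6 of 50 and 2 of 26. Of all genes 20.2% were called higher and 19.8% lower, and no difference between the subunits is read from these counts. Without 1 library the small subunit had 3 to 7 called higher (7 without IFNG 3) and 0 to 2 called lower (0 without untreated library 2 or 3 or without IFNG 2), and the large subunit had 3 called lower without untreated library 1. Mrpl45 encodes the protein that holds the ribosome to the inner membrane. It had 110, 118 and 102 CPM in treated B16, against 68.5, 71.9 and 80 CPM in untreated B16. The groups did not overlap, and the log2 change was 0.78 ± 0.11 (SE, adjusted p = 0.000251, edgeR). In YUMM1.1 the same gene had 61.1, 52.8 and 61.1 CPM in treated cells, against 52.1, 67.6 and 61.9 CPM in untreated cells, which overlapped (0.02 ± 0.13).

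Mrpl27, the relative of a bacterial protein that reaches toward the peptidyl transferase centre, had 65.5, 63.6 and 56.5 CPM in treated B16, against 42.2, 39.8 and 38.1 CPM in untreated B16. Every treated library was above every untreated one (log2 0.81 ± 0.12, adjusted p = 0.000316, edgeR). Mrpl47 had 20.2, 22.7 and 28 CPM in treated B16, against 13.7, 16.7 and 16.3 CPM in untreated B16 (0.81 ± 0.17, adjusted p = 0.00304, edgeR). It is a gene with little depth in B16, and it shares exon sequence on the opposite strand with Actl6a, which fell (log2 -0.50), and with Ndufb5, which rose (0.43). Whether the libraries keep strand is not given in the sources used here, so reads in such overlaps could belong to either gene.

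Mrpl1 had the highest log2 value of the 77, 0.85 ± 0.22 (adjusted p = 0.0118, edgeR). Its levels were 17.9, 15.1 and 26.5 CPM in treated B16, against 11.3, 12.3 and 15.5 CPM in untreated B16. The groups overlapped, the highest treated library was IFNG 3, and without untreated library 1 the adjusted p was 0.0727. Mrps18c, one of 3 genes for versions of the same bacterial protein, was likewise highest in IFNG 3, although its groups did not overlap, with 20.7, 18.5 and 31.6 CPM in treated B16 and 16.4, 17.3 and 15.9 CPM in untreated B16 (0.71 ± 0.20, adjusted p = 0.0174, edgeR). Leaving out any 1 untreated B16 library took the Mrps18c call away (adjusted p 0.0512 to 0.071). Of the other 2 versions, Mrps18a was at 0.37 ± 0.14 (adjusted p = 0.0522, edgeR) and Mrps18b at 0.39 ± 0.19 (adjusted p = 0.136, edgeR).

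Mrpl32, a protein cut to its mature form by the m-AAA protease before assembly, had 35.2, 37.8 and 53.2 CPM in treated B16, against 29, 30.9 and 29.1 CPM in untreated B16 (log2 0.70 ± 0.16, adjusted p = 0.00638, edgeR). The treated libraries were all higher, IFNG 3 most of all. Psma2, a proteasome subunit gene read from a nearby start in the direction away from Mrpl32, rose by 0.93 ± 0.10 (adjusted p = 2.99e-05, edgeR). The remaining large subunit genes called higher were Mrps30 (0.65), Mrpl35 (0.62), Mrpl41 (0.58), Mrpl18 (0.52), Mrpl13 (0.50), Mrpl51 (0.47), Mrpl30 (0.39) and Mrpl16 (0.35). In the small subunit they were Mrps7 (0.62), which belongs to the head, Mrps2 (0.42) and Mrps25 (0.40). Mrps7 shares exon sequence with Gga3 and Mif4gd, which were at 0.02 and -0.26 without a call.

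Mrpl34, a short bacterial-type protein, had the largest fall. It had 21.1, 24.4 and 15.1 CPM in treated B16, against 44.6, 44.2 and 31.9 CPM in untreated B16 (log2 -0.83 ± 0.20, adjusted p = 0.00688, edgeR). The groups did not overlap, and without untreated library 1 the adjusted p was 0.0518. Mrpl33 followed with 24.2, 19.9 and 27.6 CPM in treated B16, against 40.4, 41.6 and 48.2 CPM in untreated B16 (-0.65 ± 0.15, adjusted p = 0.00545, edgeR). For Mrpl4, whose bacterial relative lines the peptide tunnel, the levels were 59.3, 57.8 and 37.2 CPM in treated B16 and 91.3, 78.7 and 91.7 CPM in untreated B16 (-0.57 ± 0.17, adjusted p = 0.0239, edgeR). Its call was lost without untreated library 1 (adjusted p = 0.107) or 3 (0.083).

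Mrpl24 and Mrpl44 fell evenly across libraries. Mrpl24 had 38.2, 37 and 39.8 CPM in treated B16, against 60.3, 64.7 and 62.2 CPM in untreated B16 (log2 -0.51 ± 0.11, adjusted p = 0.00343, edgeR). Mrpl44, a protein found only in mitochondrial ribosomes that resembles ribonuclease III, had 58.1, 59.4 and 56 CPM in treated B16, against 90.4, 90.2 and 88.2 CPM in untreated B16 (-0.44 ± 0.10, adjusted p = 0.00494, edgeR). Within each of these groups the libraries lay close together, and both calls held in all 6 fits that left out 1 library. Mrpl20 (-0.46), Mrps9 (-0.42) and Mrps17 (-0.31) completed the genes called lower, and each lost its call in at least 2 of those 6 fits. Over the 25 called genes, 17 were called in all 6. The count called lower was 4 without untreated library 1, and 5 without untreated library 2 or 3.

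**Figure D2:**
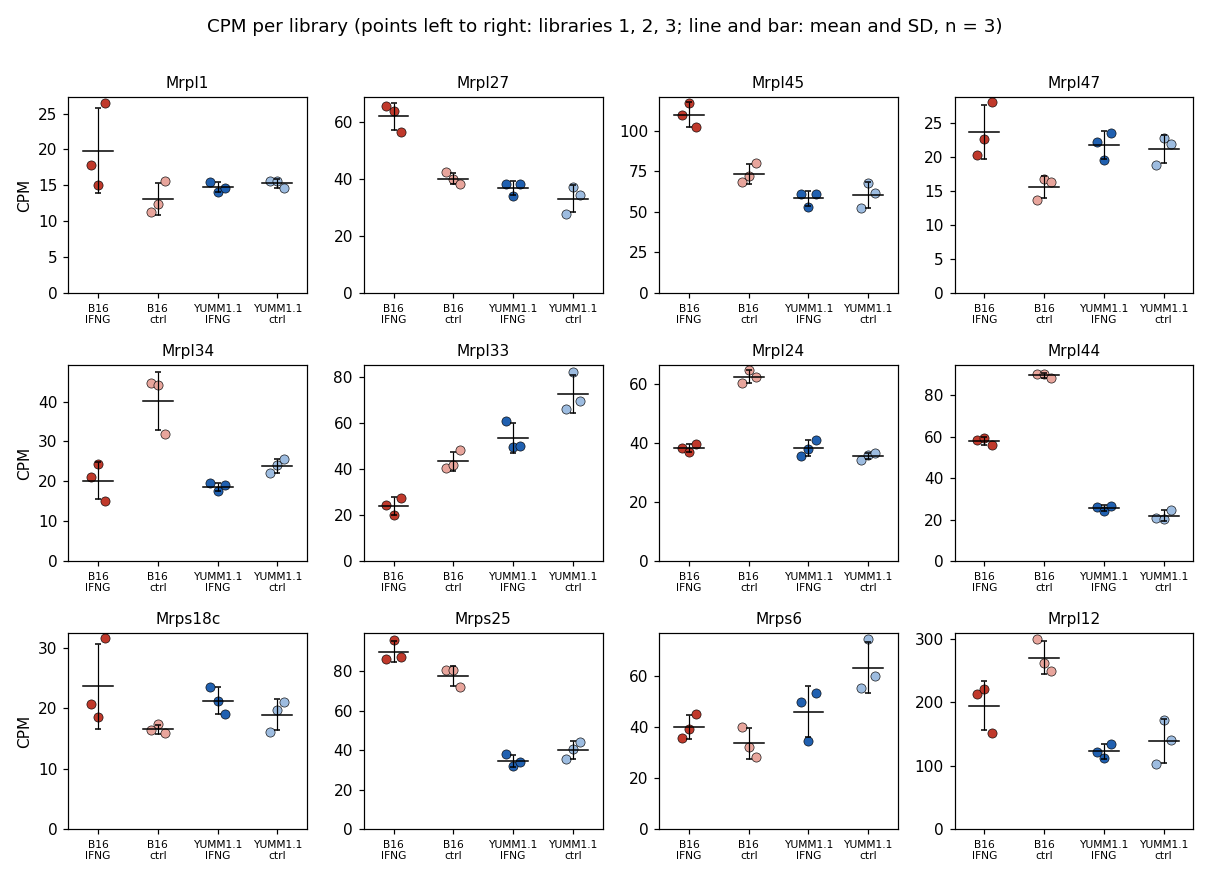
CPM of 12 mitochondrial ribosomal protein genes in each library (points, libraries 1 to 3 from left to right) with the group mean and SD (n = 3), for treated and untreated B16 and treated and untreated YUMM1.1. Mrpl27 and Mrpl45 are higher in treated than in untreated B16 and overlap in YUMM1.1, Mrpl24 and Mrpl44 are lower in treated than in untreated B16, and the third treated B16 library is the highest for Mrpl1 and Mrps18c.

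Mrpl12 had 213, 220 and 151 CPM in treated B16, against 299, 262 and 250 CPM in untreated B16, which did not overlap. On the TMM scale its log2 change was -0.28 ± 0.15 and was not called (adjusted p = 0.153, edgeR). Genes mutated in human mitochondrial disease, a list of 12, had 3 called higher (Mrps2, Mrps7 and Mrps25) and 1 lower (Mrpl44) in B16, where 40.1% of all genes were called. Its median was 0.18, and nothing particular to the list is read from these values. Of the others on that list Mrpl3 was at -0.05, Mrps14 at 0.06, Mrps16 at 0.16, Mrps22 at 0.01, Mrps23 at 0.24, Mrps28 at 0.19 and Mrps34 at 0.44, all without a call. The genes with bacterial relatives had 12 called higher and 7 lower of 44, and those found only in mitochondria 5 higher and 1 lower of 27, beside the same 40.1% of all genes. Without IFNG 3 the disease list had 5 called higher and the mitochondrial list 8, and without untreated library 1, 2 or 3 those with bacterial relatives had 3, 4 and 4 called lower.

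The third treated B16 library differed from the other 2 along the GC content of the transcripts. Over the 77 genes, the log2 ratio of IFNG 3 to the mean of IFNG 1 and IFNG 2 had a Spearman's rho of -0.64 with GC content, and over 11922 protein-coding genes of the same libraries it was -0.78. The IFNG effect itself had a rho of -0.25 with GC content over the 77 genes and -0.26 over 11750 protein-coding genes. These are descriptions across genes that share libraries. Without IFNG 3 the rho of the effect was -0.11 over the 77 genes, 23 genes were called higher and 9 lower, and all 25 genes called with it were called without it.

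**Figure D3:**
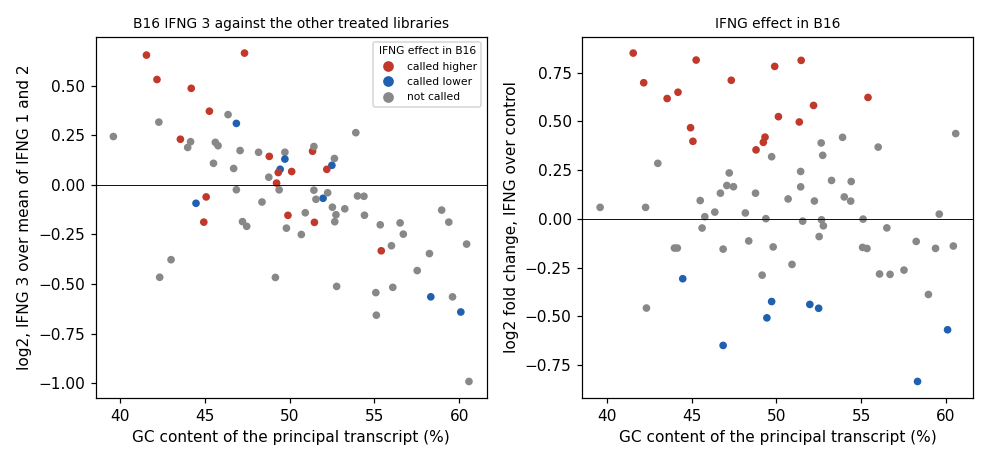
Left, log2 ratio of the CPM (plus 1) of B16 IFNG 3 to the mean of IFNG 1 and 2, and right, the log2 fold change of IFNG over control in B16, each against the GC content of the principal transcript for 77 genes, coloured by the call in B16. The left panel slopes down (rho -0.64) and the right one much less (rho -0.25), with called genes across the range of GC content.

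In YUMM1.1, no mitochondrial ribosomal protein gene was called with edgeR in either direction, where 4.54% of all 12895 genes were (3.72% higher and 0.814% lower). The log2 changes ran from -0.38 to 0.43 with a median of 0.01, and the median absolute change was 0.07 against 0.15 over all genes. Intervals were narrow: the 95% interval lay within 1 log2 unit of 0 for all 77 genes and within 0.5 for 68. At an unadjusted p below 0.05 there were 4 genes, where 14.7% of all genes passed, and for 7 genes the groups did not overlap, which held for 23.8% of all genes. DESeq2 called 1 gene higher and limma-voom called 0.

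The gene nearest to a call was Mrpl13, a large subunit protein of bacterial type. It had 135, 119 and 140 CPM in treated YUMM1.1, against 97.2, 104 and 108 CPM in untreated YUMM1.1. The groups did not overlap, and the log2 change was 0.43 ± 0.11 with an adjusted p of 0.0512 (edgeR). Mrpl13 passed the threshold with DESeq2 (adjusted p = 0.00898), in a fit of all 12 libraries (0.0141) and without the CPM minimum (0.0227). In B16 it was called, and it had 168, 172 and 191 CPM in treated cells and 145, 144 and 140 CPM in untreated cells (0.50 ± 0.09, adjusted p = 0.00173, edgeR). The difference between the lines was -0.05 ± 0.14 (adjusted p = 0.865, edgeR). Mrpl13 shares exon sequence on the opposite strand with Mtbp, which fell in B16 (-0.84). At the other end Mrps6 was at -0.38 ± 0.17, Mrpl33 at -0.37 ± 0.13 and Mrpl34 at -0.28 ± 0.12, none called.

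One untreated YUMM1.1 library had less of nearly all these mRNAs. In Control 1, 73 of the 77 genes were below the mean of Control 2 and Control 3, by a median log2 ratio of -0.27. Of all 13010 genes 6402 were below it, and the median was 0. Over 11922 protein-coding genes this log2 ratio had a Spearman's rho of 0.50 with transcript length and -0.32 with GC content. Over the 77 genes the values were 0.22 and -0.40. The same library had 10770 CPM on mRNAs encoded by mitochondrial DNA, against 5479 and 6068 CPM in the other 2 untreated libraries. Leaving it out gave no call in YUMM1.1 either, but the median log2 change of the 77 genes with IFNG moved from 0.01 to -0.09. The counts of the 77 genes called between untreated lines are given with and without it, and other values of untreated lines with it.

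The difference between the lines in their response (YUMM1.1 effect minus B16 effect, 12 libraries) was called for 14 genes, 3 positive and 11 negative, 18.2% of 77, where 19.5% of all 13010 genes were called, 10.5% positive and 8.99% negative. At an unadjusted p below 0.05 there were 20 genes, against 32% of all genes. The call held in each of the 12 fits that left out 1 library for 3 genes, Mrpl44, Mrpl24 and Mrpl45. For Mrpl44 the difference was 0.77 ± 0.16 (adjusted p = 0.0026, edgeR). It fell in B16, and in YUMM1.1 it had 26.1, 24.1 and 26.7 CPM in treated cells, against 20.6, 20.4 and 24.7 CPM in untreated cells, groups that overlapped. Mrpl24 differed by 0.71 ± 0.15 (adjusted p = 0.00329), with 35.5, 38 and 41.1 CPM in treated YUMM1.1 and 34.2, 35.9 and 36.5 CPM in untreated YUMM1.1. Mrpl45 differed by -0.74 ± 0.17 (adjusted p = 0.00627, edgeR). Mrpl44 shares exon sequence on the opposite strand with Wdfy1, which was at 0.26 in B16 and 0.74 in YUMM1.1 with IFNG. Mrpl24 shares such sequence with Rrnad1, which was at -0.31 in B16. None of these values of the neighbours was called.

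The other positive difference was Mrps9 (0.57). The other negative ones were Mrpl1 (-0.80), Mrps6 (-0.78), Mrpl47 (-0.68), Mrps30 (-0.61), Mrps7 (-0.60), Mrpl18 (-0.58), Mrpl27 (-0.55), Mrpl41 (-0.52), Mrps25 (-0.51) and Mrps2 (-0.50). Mrps6, a small subunit protein of bacterial type, differed without a call in either line. It had 35.6, 39.2 and 45 CPM in treated B16, against 40.1, 32.3 and 28.4 CPM in untreated B16, and 50, 34.7 and 53.4 CPM in treated YUMM1.1, against 55.4, 74.5 and 60.2 CPM in untreated YUMM1.1. The gene shares exon sequence on the same strand with Slc5a3, a myo-inositol transporter gene that rose in B16 (0.49). The count of negative differences varied with the processing: with library totals in place of TMM factors there were 4 positive differences and 1 negative. Without YUMM1.1 Control 1 it was 12 and without B16 IFNG 1 or YUMM1.1 IFNG 3 it was 9 and 8. When 1 of the other 9 libraries was left out it was 1 to 6, with 1 each without B16 Control 2, YUMM1.1 Control 2 or YUMM1.1 IFNG 2.

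Between the lines themselves, more of these genes were lower in YUMM1.1 than were higher. In untreated cells (YUMM1.1 over B16) 14 were called higher and 30 lower, 57.1% of 77, against 69.3% of all genes (35.2% higher and 34.1% lower). With IFNG 12 were higher and 32 lower, against 70.7% (37% higher and 33.7% lower). The lines did not overlap for 51 genes in untreated and 49 in treated cells, where 75.4% and 73% of all genes did not, and 46 and 45 had an unadjusted p below 0.05, against 71.6% and 72.9%. The median was -0.05 in untreated and -0.13 in treated cells, with 0.01 and 0.04 over all genes. In treated cells the values of the 77 had a Spearman's rho of 0.31 with GC content and -0.32 with transcript length. In untreated cells these were 0.10 and -0.22. Over 11922 protein-coding genes they were 0.04 and -0.02 in treated and -0.09 and -0.02 in untreated cells. Both comparisons were fitted on the same 12 libraries and use different ones for their contrast. Without YUMM1.1 Control 1 the untreated counts were 19 and 26, and with library totals they were 8 and 36. Without that library Mrpl12, Mrpl15, Mrpl19, Mrpl33, Mrpl42, Mrpl44, Mrps6, Mrps16, Mrps25 and Mrps33, described next, kept their direction and call between untreated lines, with Mrpl12 at -0.58 and Mrps16 at 1.12.

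**Figure D4:**
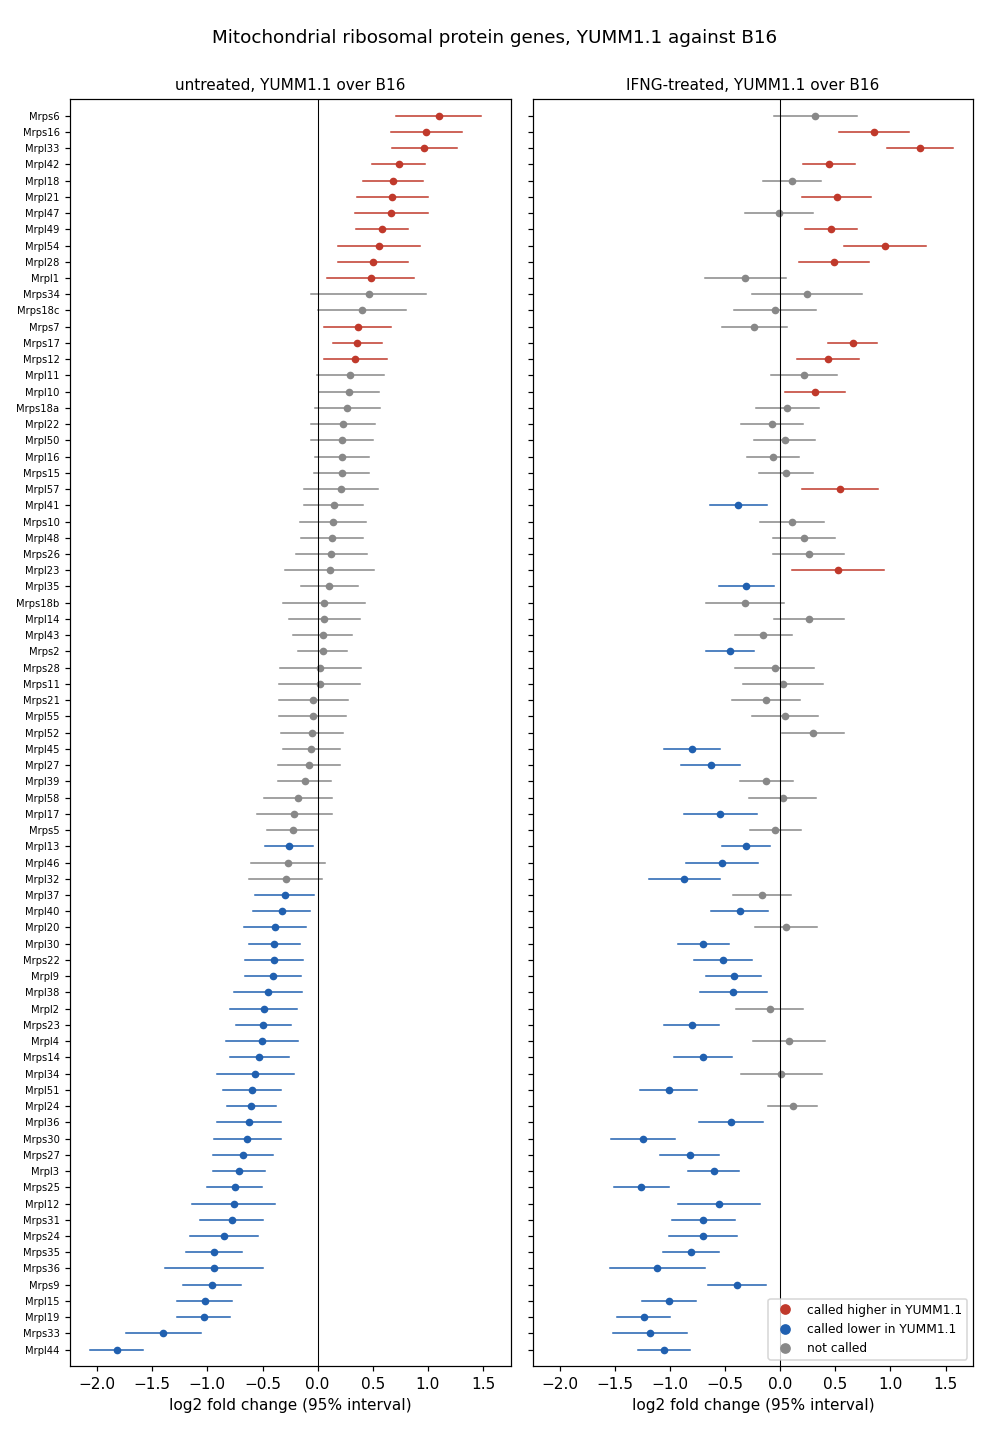
Log2 fold change of YUMM1.1 over B16 with its 95% interval in untreated (left) and IFNG-treated cells (right) for 77 mitochondrial ribosomal protein genes, both ordered by the untreated value. Blue points (lower in YUMM1.1, 30 on the left and 32 on the right) outnumber red ones (14 and 12), and Mrpl44 is the lowest on the left.

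Mrpl44 showed the largest difference in untreated cells. Its 20.6, 20.4 and 24.7 CPM in untreated YUMM1.1 stood against 90.4, 90.2 and 88.2 CPM in untreated B16 (log2 -1.82 ± 0.11, adjusted p = 5.35e-10, edgeR). With IFNG, 26.1, 24.1 and 26.7 CPM in YUMM1.1 stood against 58.1, 59.4 and 56 CPM in B16 (-1.06 ± 0.11). The groups were far apart in both states. Wdfy1, whose exons it shares on the opposite strand, was at -0.47 (adjusted p = 0.0563) between untreated lines.

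Mrps33, a small subunit protein found only in mitochondria, had 8.68, 7.26 and 8.64 CPM in untreated YUMM1.1, against 25, 28.9 and 20.2 CPM in untreated B16 (log2 -1.40 ± 0.16, adjusted p = 9.35e-07, edgeR). Mrpl19 and Mrpl15, of the large subunit, were both at -1.03 in untreated cells, and with IFNG Mrpl19 was at -1.24 and Mrpl15 at -1.01. Mrps25 had 37.9, 32 and 34.1 CPM in treated YUMM1.1, against 86.3, 96 and 87.3 CPM in treated B16 (-1.26 ± 0.12, adjusted p = 7.99e-08, edgeR), and Mrps30 was at -1.24 ± 0.14. These 2 were at -0.75 and -0.64 in untreated cells, and rose with IFNG in B16. Mrpl19 and Mrps25 share exon sequence on the opposite strand with genes that were lower in YUMM1.1 by more, Gcfc2 at -1.30 (adjusted p = 8.74e-05, edgeR) and Nr2c2 at -1.50 (adjusted p = 7.37e-08, edgeR) between untreated lines. Nr2c2 also fell with IFNG in B16 (-0.61), where Mrps25 rose. Without knowledge of strand, reads of these neighbours cannot be told apart from those of Mrpl19 and Mrps25 where exons overlap.

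Mrpl33 was the large subunit gene with the highest ratio. It had 66.1, 82 and 69.6 CPM in untreated YUMM1.1, against 40.4, 41.6 and 48.2 CPM in untreated B16 (log2 0.97 ± 0.14), and with IFNG 60.9, 49.4 and 49.8 CPM in YUMM1.1, against 24.2, 19.9 and 27.6 CPM in B16 (1.27 ± 0.14, adjusted p = 7.06e-07, edgeR). Mrps6 was at 1.1 ± 0.18 in untreated cells and at 0.32 ± 0.18 (adjusted p = 0.117, edgeR) with IFNG. Slc5a3, which shares exon sequence with Mrps6 on the same strand, was also higher between untreated lines (0.75, adjusted p = 0.013, edgeR). Reads where their exons overlap could belong to either gene. Mrps16, in which mutations cause fatal infantile lactic acidosis in people, was higher in YUMM1.1 in both states, with 60.1, 80.5 and 81.2 CPM in untreated YUMM1.1 and 49.1, 38.4 and 41.2 CPM in untreated B16 (0.98 ± 0.15), and a value of 0.85 ± 0.15 with IFNG. The other genes with the highest ratios were Mrpl42 (0.73) in untreated cells, and Mrpl54 (0.95) and Mrps17 (0.66) in treated cells, Mrpl54 above Mrps16. Mrpl12 was lower in YUMM1.1, at -0.76 ± 0.18 in untreated and -0.55 ± 0.18 in treated cells. Of the 12 disease genes 2 were called higher and 7 lower in untreated YUMM1.1, where 35.2% of all genes were called higher and 34.1% lower. With IFNG 1 was higher and 8 lower, against 37% and 33.7%. Taken without direction, the share called was near that of genes at large (69.3% untreated and 70.7% with IFNG). More of the list were lower than higher, as among the 77, and whether the list differs from the 77 was not tested. Mrps36 was at -0.94 in untreated cells (adjusted p = 0.000805, edgeR) and at -1.12 with IFNG.

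Genes that work beside the ribosome were counted by the same test. Of 5 tested proteins of the mitochondrial ribosome that carry other symbols, 0 were called in B16 with edgeR (0 at an unadjusted p below 0.05, and 0 with DESeq2 or limma-voom). Of 24 genes for ribosome assembly and rRNA modification, 6 were called higher and 0 lower in B16, where 20.2% of all genes were called higher. These were Ybey (1.03), Mterf4 (0.65), Fastkd2 (0.65), Malsu1 (0.64), Nsun4 (0.63) and Mrm3 (0.42), while the median of the list was -0.01. With library totals the split was 4 and 3, and with 1 library left out 3 to 7 were called higher, 3 without untreated library 2 and 4 without untreated library 1 or 3 or without IFNG 2. Malsu1, which keeps the immature large subunit from joining, had 39.8, 36.8 and 37.2 CPM in treated B16 and 25.7, 29.1 and 29.5 CPM in untreated B16 (adjusted p = 0.00216). Of 14 translation factors only Gfm1, an elongation factor, was called higher (0.29), a call that DESeq2 did not make and that held in the fits without IFNG 2 or IFNG 3 but not in the other 4 that left out 1 library.

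Regulators of mitochondrial gene expression had 1 gene called higher and 3 lower of 14 in B16, where 20.2% of all genes were called higher and 19.8% lower. Ppargc1a, a coactivator of mitochondrial biogenesis, had 64, 56.9 and 66.4 CPM in treated B16, against 12, 10.2 and 16.3 CPM in untreated B16 (log2 2.53 ± 0.17, adjusted p = 9.65e-07). Myc, a transcription factor that drives ribosome production, had 35.9, 40.6 and 27.4 CPM in treated B16, against 158, 160 and 145 CPM in untreated B16 (-1.97 ± 0.14, adjusted p = 2.34e-06). Nrf1 and Tfam, the factor that packages mitochondrial DNA, both fell by 0.44 on the log2 scale. The count of 3 lower became 6 without IFNG 3, 2 without IFNG 1 or IFNG 2, and 1 when any 1 of the untreated libraries was left out. In YUMM1.1 Ppargc1a stayed below 0.4 CPM in every library, and Myc had 39.3, 28.6 and 22.8 CPM in treated and 35.4, 24.4 and 37.2 CPM in untreated cells.

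The nuclear genes of the respiratory chain and ATP synthase had 26 called higher and 2 lower of 75 in B16, with a median of 0.18 that was -0.01 with library totals, and the cytosolic ribosomal proteins had 0 higher and 30 lower of 75, with a median of -0.25, beside 20.2% higher and 19.8% lower of all genes. The median of the mitochondrial ribosomal protein genes was 0.06. Uqcrh (0.68) and Sdhb (0.53) had the smallest adjusted p among the respiratory genes, and Rps7 (-0.50) and Rps27 (-0.56) among the cytosolic ribosomal proteins. With library totals the respiratory genes split into 12 higher and 6 lower, and 58 cytosolic ribosomal proteins were called lower. Leaving out 1 library gave 18 to 41 respiratory genes called higher (41 without IFNG 3) and 8 to 43 cytosolic ones called lower (8 without untreated library 1 or 2). In YUMM1.1 4.54% of all genes were called with edgeR. None of the 24 assembly genes, 14 translation factors, 14 regulators, 75 respiratory genes or 75 cytosolic ribosomal proteins was called there. At an unadjusted p below 0.05 there were 0, 0, 2, 2 and 0, and DESeq2 and limma-voom called 0 in each of these lists. Of 8 proliferation genes 4 were called lower in B16 (6 of 8 without IFNG 3), where 19.8% of all genes were, with Mki67 at -1.16 and Cdk1 at -0.56. Their part in the values of the ribosomal genes was not tested.

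**Figure D5:**
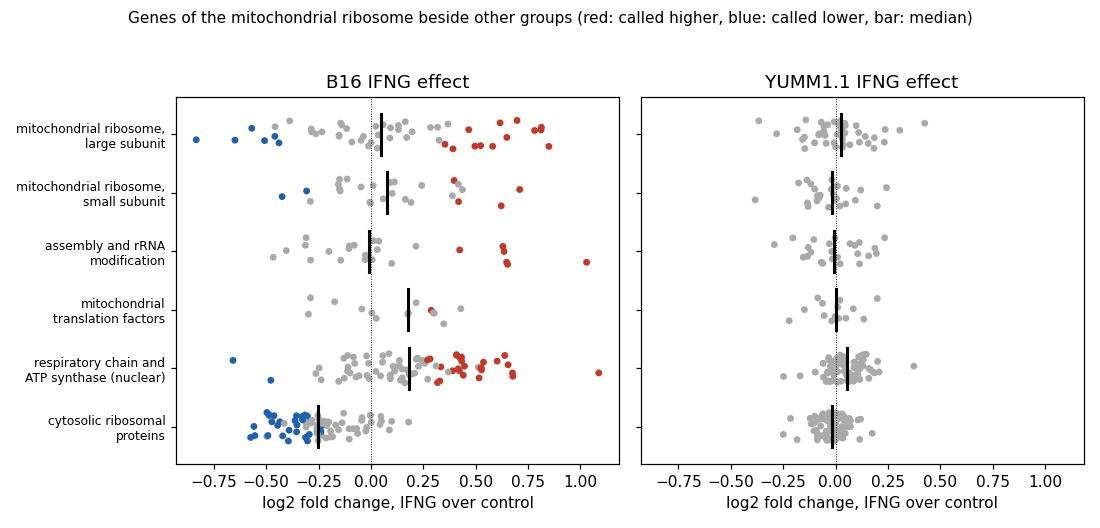
Log2 fold change of IFNG over control in B16 (left) and YUMM1.1 (right) for genes of the large and small subunit of the mitochondrial ribosome and for 4 other groups, with called genes in red (higher) or blue (lower) and the median as a bar. In B16 the mitochondrial ribosomal genes spread to both sides of 0, respiratory chain genes lie mostly above 0 (median 0.18, but -0.01 with library totals) and cytosolic ribosomal proteins mostly below it (median -0.25), while in YUMM1.1 all groups lie near 0.

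The RNAs encoded by mitochondrial DNA were measured only in part, since 6 of the 13 mRNAs had 0 reads in all 12 libraries. The other 7 summed to 10470, 10170 and 18780 CPM in treated B16, against 7931, 8811 and 11570 CPM in untreated B16. In B16 4 of the 7 were called higher (mt-Cytb, mt-Nd4, mt-Nd5 and mt-Nd6), where 20.2% of all genes were. That count was 0 with library totals, 0 without untreated library 1 or 2, 1 without IFNG 3 and 7 without IFNG 1 or IFNG 2. The large ribosomal RNA, mt-Rnr2, had 157, 180 and 461 CPM in treated B16, against 108, 129 and 149 CPM in untreated B16 (log2 1.25 ± 0.34, adjusted p = 0.0143, edgeR). Its treated libraries were all higher, but IFNG 3 was far above the other 2, and the call was lost without untreated library 1. The small one, mt-Rnr1, was at 0.99 ± 0.37 (adjusted p = 0.0538).

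Pairs read in opposite directions, away from a shared start region, were counted as well. In B16, of 30 such pairs with both genes tested, the ribosomal gene was called in 11, the partner in 13 and both in 6, of which 4 went in the same direction. Both genes rose with IFNG in the pairs Mrpl30 and Mitd1, Mrpl32 and Psma2, Mrpl41 and Pnpla7, and Mrpl47 and Ndufb5, a subunit of respiratory complex I. In the remaining pairs with both called, Mrpl13 rose (0.50) while Mtbp fell (-0.84), and Mrpl51 rose (0.47) while Ncapd2 fell (-1.08). Mrpl47 and Mrpl13 share exon sequence with these partners. Between untreated lines both genes were called in 8 pairs, all 8 in the same direction, while 16 ribosomal genes and 19 partners were called. Called or not, signs matched in 21 of the 30 pairs there and in 18 in B16. Of all genes 69.3% were called between untreated lines and 40.1% in B16. No rate was counted for such pairs among other genes, so nothing particular to these pairs is read from the counts. Members of a pair can share reads where their exons overlap, which was so for 23 of the 78 genes with some protein-coding gene.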

How the data were processed

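Raw read counts per Ensembl gene, as deposited by the authors, were used for all 12 libraries. They were made on build GRCm38, per the submitters' processing notes. For the aligner, the counter, the annotation release and strand: not given in the sources used here. The authors' deposited tables of comparisons hold log2 fold changes, test statistics (scores) and unadjusted p-values, and they served for gene symbols only. Symbols of other genes, coordinates, transcript lengths and GC content came from GENCODE M21 (GRCm38), and promoters from RefSeq (GRCm38.p6).

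Genes with at least 1 CPM in 3 of the 12 libraries were tested with edgeR 4.0.16 (R 4.3.3; TMM factors, robust quasi-likelihood F test). Each line's IFNG effect was fitted on its own 6 libraries, and the comparisons of lines and of effects on all 12. P-values were adjusted by the Benjamini-Hochberg method over all genes tested, and a gene was called at an adjusted p below 0.05. The SE was the absolute log2 fold change divided by the square root of F. Alternatives were limma 3.58.1 (voom), DESeq2 1.42.0, other scalings and filters, and leaving out each library. Nothing in the labels tells whether the libraries of a group are from separate cultures. The p-values therefore rest on the spread between these libraries, which may be technical.

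The genes, the lists and the alternatives were chosen with earlier results of these data known. Named with values were the 6 most positive and 6 most negative called genes of each IFNG effect whose groups did not overlap, the 4 most extreme on each side in the other comparisons, the most and least abundant, the Mrps18 versions, genes mutated in human disease, Mrpl12, and up to 2 genes of smallest adjusted p per further list. Mrpl1, Mrps6, Mrpl13, Mrps18c and the remaining called genes were added or described further after their values were seen, as were the genes that share exons or a start region with a named one.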

Additional observations from a re-analysis of the deposited data

Results flagged for a closer look

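For 14 mitochondrial ribosomal protein genes the IFNG effect differed between the lines (YUMM1.1 minus B16, interaction term of the edgeR fit on 12 libraries, adjusted p below 0.05). The difference was positive for Mrpl44 (0.77), Mrpl24 (0.71) and Mrps9 (0.57), 3 genes that were called lower with IFNG in B16. It was negative for Mrpl1 (-0.80), Mrps6 (-0.78), Mrpl45 (-0.74), Mrpl47 (-0.68), Mrps30 (-0.61), Mrps7 (-0.60), Mrpl18 (-0.58), Mrpl27 (-0.55), Mrpl41 (-0.52), Mrps25 (-0.51) and Mrps2 (-0.50). All of these but Mrps6 were called higher with IFNG in B16, and none of the 14 was called in YUMM1.1 with edgeR. Adjusted p-values ran from 0.0026 for Mrpl44 to 0.0454 for Mrps7, and those of Mrpl44, Mrpl24 and Mrpl45 stayed below 0.05 whichever library was left out. Groups held 3 libraries each, too few to test single libraries of a gene as outlying.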

How the results depend on the processing

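Of 188 alternative counts of called genes, 163 were within 1.5 times the reported count. Among the genes named with a test, 1340 of 1468 alternative values kept direction and call, and 0 reversed. With library totals alone, 11 genes were called higher and 18 lower in B16, 1 difference was negative, and 8 genes were higher in untreated YUMM1.1. At an adjusted p below 0.01, 5 were lower in B16 and 1 difference was negative. In YUMM1.1, DESeq2, the fit of all 12 libraries and the fit without a CPM minimum each called 1 gene higher, Mrpl13. Negative differences were 7 with limma-voom, 7 with B16 IFNG 1 and IFNG 2 summed, and 4 with no CPM minimum.

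Leaving out each library in turn gave 15 to 23 higher and 4 to 9 lower in B16, 0 in either direction in YUMM1.1, 2 to 4 positive and 1 to 12 negative differences, 11 to 19 higher and 24 to 31 lower in untreated YUMM1.1 over B16, and 10 to 13 and 30 to 32 with IFNG. Where an arm had 2 libraries left, the fit pooled the spread over the groups.

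Whether replicate numbers pair the libraries was not settled. Deviations of same-numbered libraries from their group mean correlated at 0.25, -0.005 and 0.25 in B16 and at -0.04, -0.50 and -0.03 in YUMM1.1. Those of libraries with other numbers correlated at -0.32 to 0.22 in B16 and at -0.33 to 0.52 in YUMM1.1. The deviations of a group sum to 0, so these values depend on each other and cannot decide the question. A fit with the replicate number as a block called 23 higher and 11 lower in B16, 0 in YUMM1.1, and 4 negative differences. B16 libraries held 2573805 to 7888257 counts, which limits the genes of low level there, Mrpl1 and Mrps36 among them.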
